A study of Drosophila melanogaster with 2 samples.

Results

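The dot chromosome of Drosophila melanogaster, chromosome 4, held 477 of the 30000 regions that chromatin immunoprecipitation followed by sequencing (ChIP-seq) of the transcription factor foxo gave in wandering larvae, or 1.59% of the list. The regions were taken as every interval on chromosome 4 in the authors' pooled list on the dm6 assembly, whatever its strength. That list is a relaxed one, which holds background beside peaks. The remaining 29523 lay on X, 2L, 2R, 3L and 3R, called chromosomes X, 2 and 3 below. Of the 477, 3 also stood in the authors' thresholded list of 1427 peaks, which had been made by irreproducible discovery rate (IDR). That method judges regions by how far their order of strength is shared by replicates. Here the list held exactly the 1427 regions of highest pooled signal, so a single peak need not rank alike in both replicates.

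The larvae were whole animals of the third instar at the wandering stage, of both sexes pooled, from a transgenic line that stably expressed foxo with enhanced green fluorescent protein (eGFP) joined to its C-terminus. Chromatin was sheared by sonication and precipitated with an antibody to the fluorescent tag, although another label field names foxo as the antibody's target. There were 2 biological replicates, numbered 5 and 6, in 1 group, and all regions therefore come from the same genotype, stage and treatment. The tagged protein was read in a mixture of all larval tissues, so a region says nothing of which cells held it, and a control library named for the processing was not analysed here. No sequencing depth was given, and each list held 30000 regions whatever the depth of its library.

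Foxo is the forkhead factor of the insulin pathway: when insulin signalling is low it enters the nucleus and binds DNA through its forkhead domain, and its known targets include genes of growth and metabolism. The dot chromosome is the smallest chromosome of the fly. It is packaged largely as heterochromatin, with the heterochromatin protein HP1a and a chromosome-specific RNA-binding protein, Pof, along much of its length, and it is rich in remnants of transposable elements such as INE-1. Its genes are nevertheless expressed, among them regulators of eye, wing and segment development and several genes of the synapse.

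Below are the bases around 7 of the summits, a summit being the base at which the authors placed the strongest point of a region. RpS3A and gw carried 2 of the 3 IDR peaks, and Tdg and Sox102F came next by signal. The windows near zfh2, Actbeta and Asator are shown as the regions of highest signal that held CACACACA, TATCGATA and the FOXO core TGTTTAC. Each stretch is from the plus strand of dm6 in the RefSeq genome, reaches at most 100 bases to each side of the summit, and stops where an annotated untranslated region (UTR) begins. Capitals mark matches, on either strand, to TGTTTAC, to the wider forkhead pattern RYAAAYA (R is A or G, Y is C or T), to GAGAGAG, to TATCGATA or to CACACACA. Every TGTTTAC match is also a match to the wider pattern.
RpS3A, chr4:67208-67392: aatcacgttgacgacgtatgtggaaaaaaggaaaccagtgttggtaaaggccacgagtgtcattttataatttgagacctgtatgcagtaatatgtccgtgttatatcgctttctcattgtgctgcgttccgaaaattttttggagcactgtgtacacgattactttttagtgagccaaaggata
gw, chr4:660070-660270: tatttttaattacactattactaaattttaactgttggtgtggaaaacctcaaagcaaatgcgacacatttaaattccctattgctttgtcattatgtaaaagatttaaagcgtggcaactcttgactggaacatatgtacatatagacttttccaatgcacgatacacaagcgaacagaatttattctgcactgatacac
Tdg, chr4:557855-558002: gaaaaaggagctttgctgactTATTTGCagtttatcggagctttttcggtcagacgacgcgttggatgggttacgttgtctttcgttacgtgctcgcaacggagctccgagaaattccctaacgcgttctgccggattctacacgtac
Sox102F, chr4:834415-834615: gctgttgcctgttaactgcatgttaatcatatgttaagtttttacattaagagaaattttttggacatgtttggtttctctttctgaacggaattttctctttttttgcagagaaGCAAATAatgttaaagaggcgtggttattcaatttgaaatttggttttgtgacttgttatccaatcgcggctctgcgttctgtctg
zfh2, chr4:501493-501693: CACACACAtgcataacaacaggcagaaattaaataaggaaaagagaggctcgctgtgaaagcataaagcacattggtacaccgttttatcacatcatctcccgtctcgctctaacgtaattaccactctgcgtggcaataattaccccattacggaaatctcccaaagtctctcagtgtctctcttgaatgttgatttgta
Actbeta, chr4:1084797-1084939: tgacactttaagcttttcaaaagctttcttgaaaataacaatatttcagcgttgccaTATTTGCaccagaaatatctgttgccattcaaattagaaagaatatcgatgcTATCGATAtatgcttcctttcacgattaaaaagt
Asator, chr4:482721-482889: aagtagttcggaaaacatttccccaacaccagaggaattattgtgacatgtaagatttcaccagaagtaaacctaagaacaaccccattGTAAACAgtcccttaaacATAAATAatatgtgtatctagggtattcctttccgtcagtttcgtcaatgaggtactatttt
The stretches near RpS3A and gw held none of the patterns, and the one near Asator held the FOXO core as GTAAACA. The third IDR peak, at Cals, had its summit in a 3′ UTR and is described without its bases. A match describes letters and is no evidence of binding at that base, and a stretch without one says only that these letters are not in it.

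Foxo regions were dense per Mb on the dot chromosome. It carried 354 regions per Mb in the pooled list, against 223 per Mb on chromosomes X, 2 and 3, where single arms ranged between 190.2 and 241 per Mb. Neighbouring summits were about as far apart as elsewhere in that list, with a median gap of 1546.5 bp against 1559 bp. Replicate 5's own list gave 520 regions, or 386 per Mb, on chromosome 4 and 222 per Mb elsewhere, and replicate 6's list gave 416 regions, or 309 per Mb, on chromosome 4 and 223 per Mb elsewhere. The ratio of chromosome 4 to the rest was thus 1.59 in the pooled list, 1.73 in replicate 5 and 1.38 in replicate 6, and in each list chromosome 4 stood above every other arm. Chromosome 4 makes up 1.01% of the length of the 6 chromosomes. Exact Poisson 95% intervals for its density ran from 323 to 387 per Mb in the pooled list; such intervals cover counting error only, and regions are not replicates. With 1 group and 2 replicates no test between chromosomes was run, and the values of replicates 5 and 6 stand for the spread. Annotated starts were sparser on the dot chromosome: transcription start sites (TSSs) numbered 136 per Mb on chromosome 4 and 177 per Mb elsewhere, which gave 2.61 regions per TSS position on chromosome 4 and 1.26 elsewhere.

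The excess lay among weaker regions. Ranked by the authors' signal value, the first 1427 regions of the pooled list, which are the IDR peaks, held 3 on chromosome 4, a density 0.207 times that of chromosomes X, 2 and 3. Ranks 1428 to 5000 held 32, at 0.888 times. The ratio was 1.27 at ranks 5001 to 10000, 1.88 at ranks 10001 to 15000 and 2.11 at ranks 15001 to 20000. It was 1.99 at ranks 20001 to 25000 and 1.599 at ranks 25001 to 30000. Among the first 1427 regions of each replicate's own list chromosome 4 again had 3, and the ratio passed 1 from the second band in replicate 5 (1.17) and from the next band in replicate 6 (1.05).

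**Figure D1:**
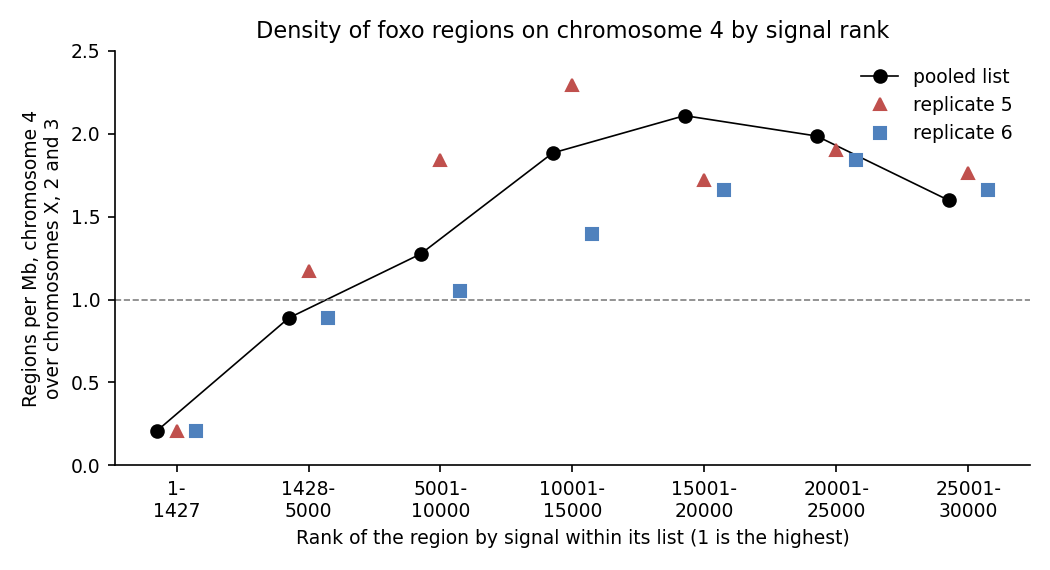
Regions per Mb on chromosome 4 divided by regions per Mb on chromosomes X, 2 and 3 (vertical axis), in bands of regions ranked by signal within each list (horizontal axis, strongest at the left). Black points joined by a line are the pooled list, triangles replicate 5 and squares replicate 6; the dashed line marks equal density. All 3 lists start at 0.207 and lie above 1 from rank 5001 on.

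The share of chromosome 4 regions in the IDR list was 0.629% (3 of 477, exact Clopper-Pearson 95% interval 0.130 to 1.83%), against 4.82% on chromosomes X, 2 and 3 (1424 of 29523) and 4.76% of the whole list. Per length, that was 2.23 IDR peaks per Mb on chromosome 4 and 10.7 per Mb elsewhere. The authors' q-values gave the same order. In the pooled list they mostly fell as the signal rose, so they restate the signal and are no separate measure. At a q of at most 0.01, 20 chromosome 4 regions of the pooled list passed (4.19%), against 12.0% on chromosomes X, 2 and 3 and 11.8% of the whole list. In replicate 5 the numbers were 3 of 520 (0.577%) on chromosome 4, against 3.59% elsewhere and 3.54% of that list. Replicate 6 passed 53 of 416 (12.7%) on chromosome 4, against 23.0% elsewhere and 22.9% of that list. The chromosome 4 share was the lower one in all 3 lists. Both shares were higher in replicate 6 than in replicate 5, that of chromosome 4 by the larger factor, from only 3 regions in replicate 5.

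Most chromosome 4 signals were close to those of other regions, and the upper end was short. The signal is the authors' value for each region, its scale is not given in the sources used here, and it was compared within a list only. In the pooled list the chromosome 4 median was 19.7 with quartiles of 16.4 and 25.3, against a median of 21.4 with quartiles of 16.7 and 31.9 on chromosomes X, 2 and 3. That median stood above 42.6% of the other regions. By replicate it was 12.6 on chromosome 4 and 12.8 elsewhere in replicate 5, where it stood above 48.7% of the others, and 11.3 on chromosome 4 and 12.6 elsewhere in replicate 6, where it stood above 41.5%. The highest signal was 77.7 on chromosome 4 and 745 elsewhere. A signal of at least 40 was reached by 32 chromosome 4 regions (6.71%) and by 16.1% of the others, and one of at least 60 by 5 (1.05%) and by 6.73%.

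The strongest region on the dot chromosome lay in the 3′ UTR of Cals, which encodes the calsyntenin, a transmembrane adhesion protein of the cadherin superfamily. It covered chr4:1113157-1113536, 9618 bp inside the gene from the nearest TSS, with a pooled signal of 77.7, 49.5 in replicate 5 and 24.2 in replicate 6. RpS3A encodes a protein of the small ribosomal subunit, and its peak at chr4:67102-67481 had its summit 85 bp upstream of the TSS. That peak had 73.0 in the pooled list, 38.4 in replicate 5 and 35.0 in replicate 6. The remaining IDR peak lay in gw, the GW182 protein of microRNA silencing, at chr4:659980-660359, inside the gene and 187 bp upstream of an internal TSS; its signal was 72.0 pooled, 40.2 in replicate 5 and 19.8 in replicate 6. All 3 were stronger by rank in replicate 5 (564 for Cals, 1040 for RpS3A, 942 for gw) than in replicate 6 (5141, 2283 and 7320 for the same genes).

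The IDR list ended at a pooled signal of 69.04, and the next chromosome 4 region stood just outside it. That region, at chr4:557712-558091 with a pooled signal of 68.98, had its summit 48 bp upstream of Tdg, the thymine DNA glycosylase of base excision repair, in the short gap that separates it from Pur-alpha, a single-stranded nucleic acid binding protein. Its signal was 23.7 in replicate 5 and 40.2 in replicate 6. A further region 705 bp inside Tdg had 52.2 pooled, 20.1 in replicate 5 and 34.2 in replicate 6. Sox102F, a SoxD transcription factor, followed with 61.2 in the pooled list, 32.5 in replicate 5 and 30.5 in replicate 6, its summit 122 bp upstream of the TSS. An intronic region of Asator, a tau-tubulin kinase, had 59.0 pooled, 25 in replicate 5 and 39.4 in replicate 6. A region between genes, 9829 bp from the nearest TSS, that of lncRNA:CR43437, had 55.5 pooled, 25.7 in replicate 5 and 25.7 in replicate 6. The next genes encode ligands of the TGF-beta family. Actbeta had 52.5 pooled, 24.4 in replicate 5 and 28.0 in replicate 6, with the summit 43 bp upstream of its TSS. The myoglianin gene myo had 50.1 pooled, 19.9 in replicate 5 and 30.7 in replicate 6, from a region 737 bp upstream that also lay within 1000 bp of a TSS of ey, the Pax6 factor of eye development. The Mediator subunit gene MED26 had 49.4 pooled, 20.9 in replicate 5 and 28.1 in replicate 6.

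Several strong promoter regions had no matched summit within 150 bp, or a weak one, in replicate 5. The region 217 bp upstream of zfh2, a zinc finger and homeodomain factor, had a pooled signal of 58.7 and 63.2 in replicate 6, the highest chromosome 4 value of that list, but no summit within 150 bp in replicate 5. At pan, the TCF factor of Wnt signalling, a region inside the gene lay 66 bp upstream of an internal TSS. It had 49.1 pooled and 58.2 in replicate 6 and no match in replicate 5. Rnf11, a ring finger protein, had 52.1 pooled and 37.1 in replicate 6, with no summit within 150 bp in replicate 5. Replicate 5 did have a region near that TSS, with a signal of 24.0 and rank 3378. It was matched to an overlapping pooled region with 37.8. ATPsynbeta, the beta subunit of the mitochondrial ATP synthase, ranked 1523 with a signal of 41.2 in replicate 6 and 23125 with a signal of 10.4 in replicate 5. Of the 15 strongest chromosome 4 regions 12 were matched in both replicates, and 10 lay within 500 bp of a TSS. Elsewhere both replicates matched 92.8% of regions at ranks 1 to 1427 and 76.1% at ranks 1428 to 5000. Over all ranks 21.8% of chromosome 4 summits and 31.6% of the others lay within 500 bp of a TSS. The 3 chromosome 4 regions that ranked within the first 1427 of replicate 5 were the IDR peaks of Cals, gw and RpS3A. Those of replicate 6 were the zfh2 and pan promoters and a region 2108 bp upstream of a TSS of ci, the Gli factor of Hedgehog signalling, with 44.7 in replicate 6. That last region, singled out after its values were seen, lay in an intron of an antisense RNA gene. None of these 3 was matched in replicate 5. The count of 3 thus held in each list, with the same regions in the pooled list and replicate 5 and different ones in replicate 6.

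**Figure D2:**
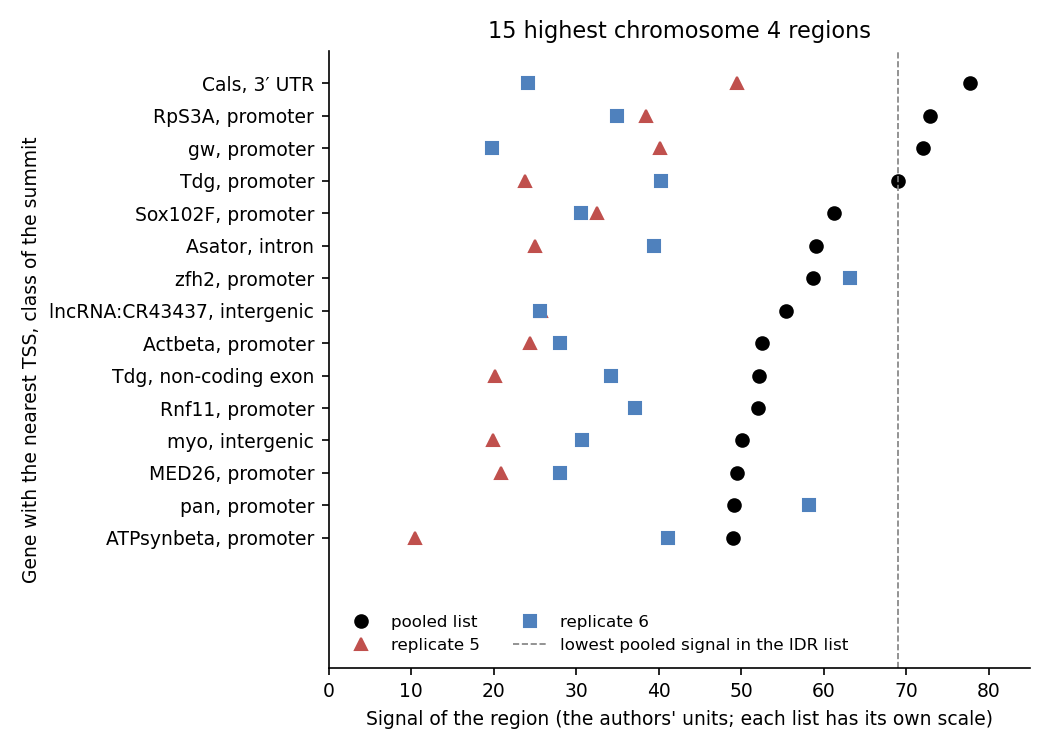
Signal (horizontal axis, the authors' units) of the 15 chromosome 4 regions with the highest pooled signal, strongest at the top and named by the gene of the nearest TSS and the class of the summit. Black circles are the pooled list, triangles replicate 5 and squares replicate 6, and a missing symbol means no summit within 150 bp in that replicate. The dashed line is the lowest pooled signal in the IDR list, 69.04, and zfh2, Rnf11 and pan lack a triangle, while that of lncRNA:CR43437 (25.7) lies under its square.

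Replicate support was uneven across the 477 regions. A summit of replicate 5 lay within 150 bp of 304 (63.7%) and a summit of replicate 6 within that distance of 254 (53.2%), and 129 (27.0%) had both. On chromosomes X, 2 and 3 the shares were 59.8% for replicate 5, 60.4% for replicate 6 and 31.6% for both. The lower share with both went with the weaker ranks of chromosome 4. Among ranks 1428 to 5000 both replicates matched 26 of 32 chromosome 4 regions (81.3%), against 76.1% elsewhere. At ranks 5001 to 10000 it was 35 of 64 (54.7%) against 54.6%, and at ranks 10001 to 15000 34 of 94 (36.2%) against 31.2%. Neither replicate matched 48 chromosome 4 regions (10.1%), against 11.4% elsewhere. Across the 129 regions matched in both, Spearman's rho between replicate signals was 0.38, against 0.47 over 9315 regions elsewhere, a description of regions that share libraries.

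Summits on the dot chromosome fell near TSSs less often, and in coding sequence more often, than elsewhere. Each summit was placed in the first of these that held it: within 500 bp of a TSS (promoter), a UTR at the 5′ or the 3′ end, coding sequence, an exon of a non-coding gene, an intron, or sequence between genes. Promoters took 104 chromosome 4 summits (21.8%), 75 of 520 in replicate 5 (14.4%) and 121 of 416 in replicate 6 (29.1%). On chromosomes X, 2 and 3 they took 31.6% in the pooled list, 26.0% in replicate 5 and 35.3% in replicate 6. Promoters are 10.7% of chromosome 4 bases and 13.6% of the others, so the share over bases was 2.03 on chromosome 4 and 2.33 elsewhere. That fold was 1.34 on chromosome 4 and 1.91 elsewhere in replicate 5, and 2.71 on chromosome 4 and 2.60 elsewhere in replicate 6, so which of chromosome 4 and the rest had the higher fold turned with the replicate. The median pooled signal on chromosome 4 was 24.0 in promoters, 18.9 in introns and 17.3 in coding sequence, and the 8 summits in non-coding exons had 30.9.

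Coding sequence held 58 chromosome 4 summits (12.2%), 103 in replicate 5 (19.8%) and 45 in replicate 6 (10.8%). The shares elsewhere were 2.66% in the pooled list, 4.42% in replicate 5 and 3.99% in replicate 6, lower than on chromosome 4 in every list. Coding bases make up 18.0% of chromosome 4 and 13.04% of the rest, so the share over bases was 0.676 on chromosome 4 and 0.204 elsewhere. That fold was 1.10 on chromosome 4 and 0.339 elsewhere in replicate 5, and 0.601 on chromosome 4 and 0.306 elsewhere in replicate 6. On chromosome 4 the coding share of summits was thus below that of bases in the pooled list and replicate 6, and slightly above it in replicate 5. Among regions matched in both replicates the coding share was 10.1% on chromosome 4 (13 of 129) and 1.06% elsewhere. Base composition differed as well: coding bases had a GC content of 41.6% on chromosome 4 and 53.6% elsewhere, and its part in the coding share was not tested. The strongest coding region lay in ATPsynbeta, with 34.4 in the pooled list, 20.3 in replicate 5 and 10.04 in replicate 6. The uncharacterised gene CG33978 held 7 coding summits, more than any other chromosome 4 gene, and was chosen after its values were seen.

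Introns took 191 chromosome 4 summits (40.04%), against 42.3% elsewhere, intergenic sequence 67 (14.05%) against 15.5%, and 3′ UTRs 42 (8.81%) against 5.93%. The 3′ UTR share followed the bases, 7.96% on chromosome 4 and 5.03% elsewhere. The median distance to the nearest TSS was 2345 bp on chromosome 4 and 1337 bp elsewhere. It was 3223.5 bp on chromosome 4 and 1743 bp elsewhere in replicate 5, and 1415 bp on chromosome 4 and 1096 bp elsewhere in replicate 6. Of the promoter summits, 50 of 104 lay upstream of the TSS (48.1%), against 64.1% elsewhere. The upstream share was 60% on chromosome 4 and 61.8% elsewhere in replicate 5, and 43.8% on chromosome 4 and 60.9% elsewhere in replicate 6.

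**Figure D3:**
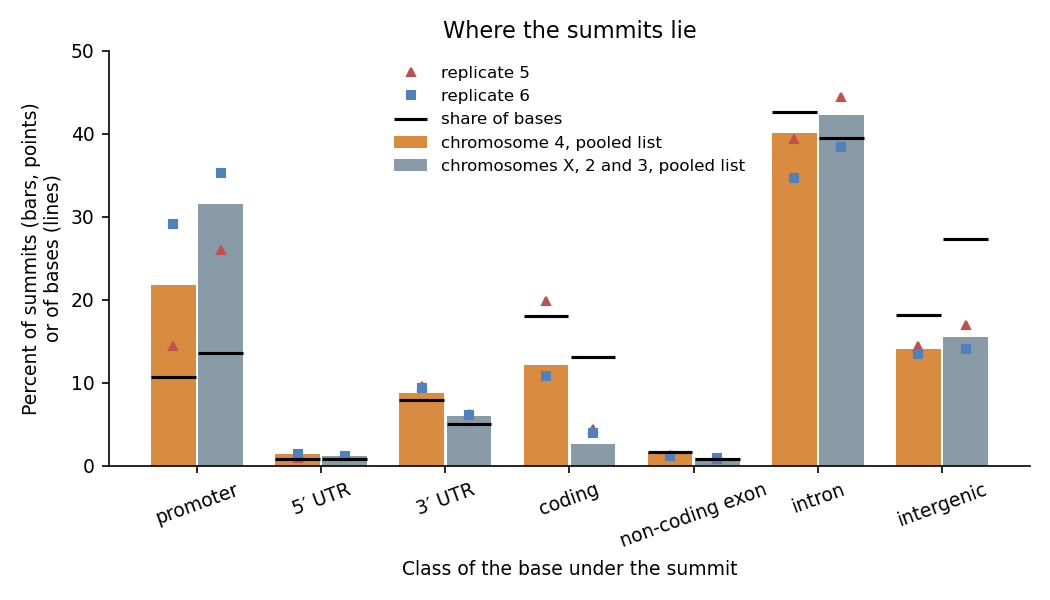
Percent of summits in each class (vertical axis), for chromosome 4 (left bars) and chromosomes X, 2 and 3 (right bars) in the pooled list, with replicate 5 as triangles and replicate 6 as squares. Short black lines give the share of bases in that class. Coding sequence holds 12.2% of chromosome 4 summits and 2.66% of the others, and the promoter values of replicates 5 and 6 on chromosome 4 lie at 14.4% and 29.1%.

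Mobile elements, as RefSeq annotates them, cover 24.8% of chromosome 4 and 5.22% of the rest. They held 66 chromosome 4 summits (13.8%), 79 in replicate 5 (15.2%) and 56 in replicate 6 (13.5%), against 0.630%, 0.797% and 0.433% elsewhere in the same lists. Per length that was 198 summits per Mb inside the elements of chromosome 4 and 405 per Mb outside them, against 26.9 per Mb inside and 234 per Mb outside on chromosomes X, 2 and 3. The dot chromosome was therefore the denser one on both sides, and the ratio to the rest was greater inside the elements. INE-1, a short and ancient element with 344 annotated copies on the chromosome, held 37 of the summits, a summit in overlapping copies being counted once, or 380.1 per Mb (exact Poisson 95% interval 268 to 524), close to the density outside elements. The 60 copies of the 1360 DNA transposon held 6, or 117 per Mb, and the telomeric HeT-A and TART elements held 1, or 13.8 per Mb. All other families together held 22, or 158 per Mb. Reads from repeated copies may be dropped or placed at random, the treatment of such reads is not given in the sources used here, and its part in these densities was not tested. Chromosome 4 regions in elements had a slightly lower median signal in the pooled list, 18.0 against 19.996 outside them. It was 12.4 inside and 12.7 outside in replicate 5, and 10.2 inside and 11.6 outside in replicate 6. The strongest region in an element lay in a transib3 copy in an intron of Syt7, with 32.1 in the pooled list, 17.7 in replicate 5 and 10.2 in replicate 6.

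Most protein-coding genes of the dot chromosome had a region of the relaxed list, peak or background, near a TSS. Only 40 of the 477 regions (8.39%) had a q of at most 0.05, against 19.0% elsewhere. Within 1000 bp of any TSS, 71 of 80 genes had a summit (88.8%, exact Clopper-Pearson 95% interval 79.7 to 94.7%), against 58.1% of 13865 genes elsewhere. Replicate 5 gave 68 (85%) on chromosome 4 and 54.4% elsewhere, and replicate 6 gave 71 (88.8%) on chromosome 4 and 61.5% elsewhere. Neighbouring genes can share 1 region, and genes with several TSSs have more chances. The greater density of regions on chromosome 4, 354 against 223 per Mb, also gives each gene more chances. Its part in the share was not tested. Among genes with 1 TSS the shares were 37 of 42 on chromosome 4 (88.1%) and 50.6% elsewhere. An IDR peak lay near 2 of the 80 (2.5%), RpS3A and gw, against 7.74% elsewhere. Both replicate lists marked 61 of the 80. Genes on chromosome 4 are long, with a median of 10090 bp against 2156 bp. Of the 80, 73 had at least 1 summit in the gene body, and the share elsewhere is not given here. The genes pan and zfh2 had the most such summits, 20 and 13. The gene unc-13, which acts in priming synaptic vesicles, had 12, and Cadps, which acts in dense-core vesicle release, had 11, as did PMCA, the plasma membrane calcium pump. These genes are 30725 to 44945 bp long. Per kb they held 0.445 (pan), 0.333 (zfh2), 0.270 (unc-13), 0.269 (Cadps) and 0.358 (PMCA) summits, against 354 per Mb over the chromosome.

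In the role lists, a gene counts as having a region as above, so each count reads against the 71 of 80 protein-coding genes of the chromosome (88.8%), and a count in both replicates against 61 of 80. The region need not be the same one in both replicates. The median highest signal over the marked protein-coding genes was 28.2. The lists are short, and no count is read as particular to its list. Replicate values are those matched to the pooled region itself. Of 13 transcription factor genes, 11 had a region, with a median highest signal of 25.1. Sox102F (61.2), zfh2 (58.7), ey (50.1) and pan (49.1) stood above the others of the list. The next highest was Mitf with 32.3, a regulator of lysosomal genes, and it was named after its values were seen. All 4 genes of transcriptional cofactors had a region in both replicate lists. MED26 was followed by Hcf, the host cell factor homolog, with a pooled highest signal of 35.3, 14.7 in replicate 5 and 12.8 in replicate 6. Taf3, a subunit of the TFIID complex, had 32.2 pooled, 16.0 in replicate 5 and 12.6 in replicate 6. The gene lgs, for the BCL9 partner of armadillo in Wnt signalling, had 20.4 pooled and 23.9 in replicate 6, with no match in replicate 5.

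Among signalling genes, all 4 secreted ligands had a region in both replicate lists, against 61 of the 80 genes, with a median highest signal of 38.9, against 28.2 over the marked genes. Below Actbeta and myo came Ephrin, the ligand of the Eph receptor, with 27.7 pooled and 17.9 in replicate 6, and no match in replicate 5. The gene mav, for maverick, another TGF-beta ligand, had 22.8 pooled and 12.3 in replicate 6, and no match in replicate 5. Receptor and adhesion genes had a region in 5 of 6, against 71 of 80 over the chromosome, and 2 of them had one in both replicate lists. PlexA, a semaphorin receptor, was the highest with 41.6 pooled, 27.4 in replicate 5 and 17.1 in replicate 6, and Cals had 28.2 near a TSS, apart from its peak in the 3′ UTR. PlexB (27.1) and Eph (19.9) had a region near a TSS in replicate 6 and none in replicate 5. The kinase and signalling list had a region in 5 of 5, near the same share. CaMKII, the calcium/calmodulin-dependent kinase, had 37.6 pooled, 12.4 in replicate 5 and 24.3 in replicate 6. Dyrk3 (31.9), the adaptor Crk (26.8) and the lipid kinase PIP4K (25.1) were lower, and Crk had no region near a TSS in replicate 5.

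The general cell function list had the highest median of the 8 lists, 44.1. It had a region at 7 of 7 genes, against 71 of 80 over the chromosome, and in both replicate lists at 5 of 7, against 61 of 80. RpS3A, Tdg and ATPsynbeta led it, followed by Gyf, a GIGYF protein of translational repression, with 44.1 pooled, 40.8 in replicate 6 and none in replicate 5. Of 6 synapse and membrane genes 4 had a region, with PMCA at 35.1, Cadps at 31.9, unc-13 at 27.1 and Syt7 at 14.5, and PMCA and Syt7 had none in replicate 5. Ank, the ankyrin, had 34.2 pooled, 16.6 in replicate 5 and 17.3 in replicate 6. The gene apolpp, for the precursor of the main lipid carrier of the blood, had 7 regions near its TSSs, the highest at 31.3 pooled, 11.9 in replicate 5 and 20.6 in replicate 6. Dyrk3 and Cadps drew their highest signal from the same region, as did ey and myo, and also Ephrin and ND-49.

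The 9 protein-coding genes without a region near a TSS in the pooled list, named after their values were seen, were JYalpha, CG32006, dpr7, NfI, Zip102B, CG1909, Gat, bt and sv. JYalpha and dpr7 had none in either replicate list as well. The gene bt, for the titin-like projectin of muscle, is 52075 bp long and had 4 summits in its body and 2 regions near a TSS in replicate 5. The gene sv, for a Pax2 factor, had 6 summits in its body and 1 region near a TSS in replicate 6. Zip102B and CG1909 had regions in both replicate lists and none in the pooled list. Absence from the pooled list therefore did not mean absence from the replicates for 7 of the 9.

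**Figure D4:**
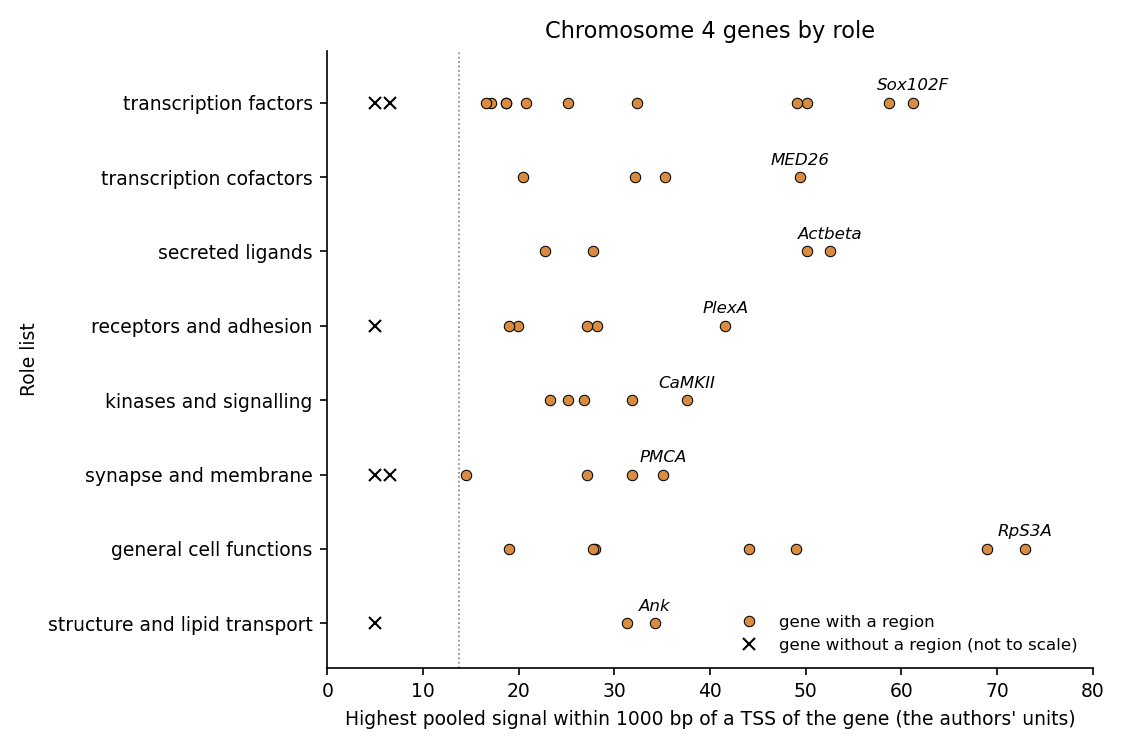
Highest pooled signal within 1000 bp of a TSS (horizontal axis, the authors' units) for the chromosome 4 genes of 8 role lists (rows); each circle is a gene, the highest of each list is named, and crosses at the left are genes without a region. The dotted line is the lowest pooled signal on chromosome 4. RpS3A stands at 73.0 and Sox102F at 61.2, and the transcription factors spread from 16.6 upwards.

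Regions were spread over most of the assembled chromosome and were sparse at its ends. The first pooled region began at base 42355, and the longest gap between neighbouring summits was 49843 bp, against 978039 bp elsewhere. Windows of 100 kb held between 16 and 50 pooled regions in the first 12 windows, 7 to 55 in replicate 6 and 19 to 59 in replicate 5. The densest was the second window with 50, which holds part of pan, Ank, CG33978 and other genes, and the sparsest was the eighth with 16, which holds bt. In the same 2 windows replicate 5 had 59 and 22 and replicate 6 had 55 and 7. The window before the last had 19 pooled regions on 43.5% mobile elements, with 17000 undetermined bases, and the final 48.1 kb, with 95.4% mobile elements and no TSS, had 1, with 2 in replicate 5 and 0 in replicate 6. The median distance between neighbouring summits was 1546.5 bp on chromosome 4 and 1559 bp elsewhere. Its lower quartile was 849.5 bp on chromosome 4 and 746.25 bp elsewhere, and its upper quartile 3056 bp on chromosome 4 and 3891 bp elsewhere. The median was 1640 bp against 1945 bp elsewhere in replicate 5, and 1346 bp against 1392 bp in replicate 6. Every pooled region on chromosome 4 was 380 bp wide, and merging those that overlapped left 426.

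**Figure D5:**
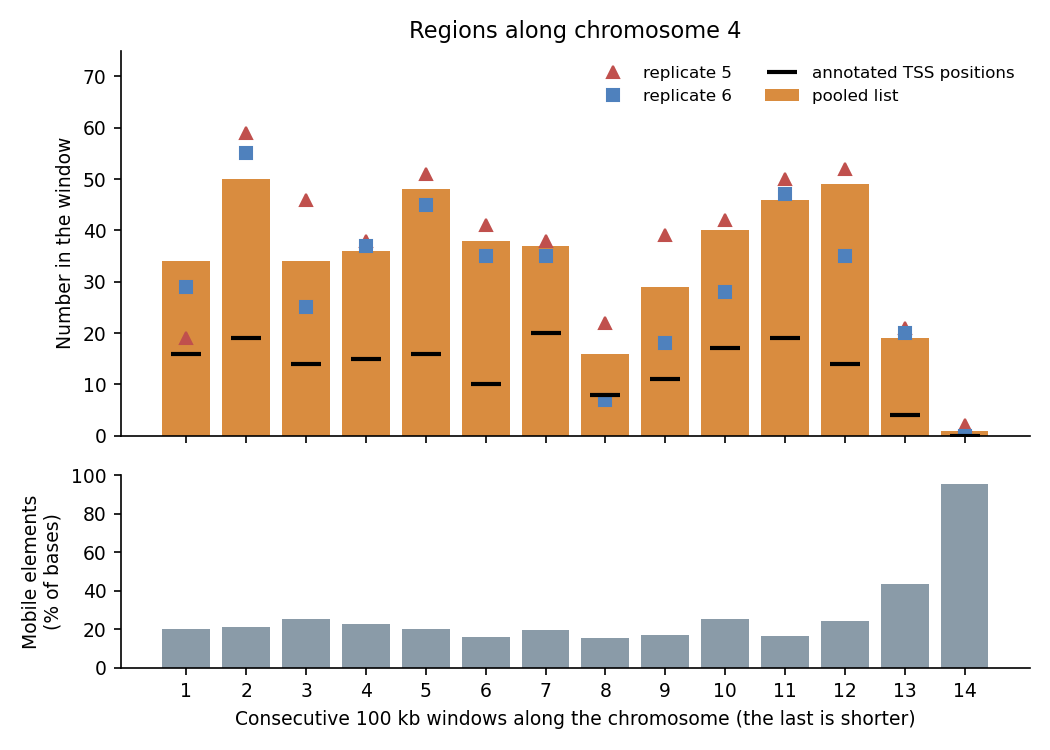
Upper panel, number of regions in consecutive windows of 100 kb along chromosome 4 in the pooled list (bars), replicate 5 (triangles) and replicate 6 (squares), with the number of annotated TSS positions as black dashes. The lower panel gives the percent of bases in mobile elements. The second window has 50 pooled regions and the eighth 16, and the last, shorter window has 1 region on 95.4% mobile elements.

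Summits of the dot chromosome differed little in GC content from its own flanks. Windows of 201 bp at the 477 summits had a mean GC content of 34.4%, and 686 windows centred 1000 bp away and clear of any region had 33.5%. On chromosomes X, 2 and 3 it was 38.8% at summits and 42.9% in flanks, so that summits were poorer in GC than their flanks there and slightly richer on chromosome 4. That difference on chromosome 4 was 0.85 percentage points in the pooled list, 1.23 in replicate 5 and 0.81 in replicate 6, but with flanks taken 2000 bp away it was -0.25.

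The FOXO core TGTTTAC was found at 12 chromosome 4 summits (2.52%, exact Clopper-Pearson 95% interval 1.31 to 4.35%), 19 in replicate 5 (3.65%) and 16 in replicate 6 (3.85%). Flanks held it in 4.66% of windows in the pooled list, 3.95% in replicate 5 and 3.81% in replicate 6, and all windows of the chromosome in 4.41%. The core was thus no more frequent at chromosome 4 summits than around them in the pooled list or in replicate 5, and nearly level in replicate 6. On chromosomes X, 2 and 3 it was found at 5.99% of summits and 3.85% of flanks, with 5.66% of summits in replicate 5 and 5.85% in replicate 6. The wider forkhead pattern RYAAAYA was found at 48.0% of chromosome 4 summits and 52.2% of flanks, against 51.8% of summits and 40.001% of flanks elsewhere. On chromosome 4 replicate 5 had it at 44.6% of summits and 51.7% of flanks, and replicate 6 at 49.04% of summits and 48.96% of flanks. Chromosome 4 windows had 35.3% GC and those elsewhere 42.2%, and the part of base composition in these shares was not tested. None of the 15 strongest chromosome 4 regions held the core and 9 held the wider pattern. The strongest with the core lay 69 bp upstream of an internal TSS of Asator, at chr4:482599-482978, with 46.2 pooled, 25.1 in replicate 5 and 15.3 in replicate 6. The 12 with the core had a median signal of 20.02, against 19.7 for the other 465.

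GAGAGAG, a motif of GAGA factor, was at 6 chromosome 4 summits (1.26%) and in 1.31% of its flanks, against 5.05% of summits and 2.35% of flanks elsewhere. In replicate 5 it was at 0.769% of chromosome 4 summits and 3.57% of the others, and in replicate 6 at 0.721% of chromosome 4 summits and 6.00% of the others. CACACACA was at 9 (1.89%) against 0.875% of flanks, with 4.92% of summits and 4.08% of flanks elsewhere. Its order on chromosome 4 turned with the replicate, at 0.577% of summits and 1.15% of flanks in replicate 5 and 1.68% of summits and 0.692% of flanks in replicate 6. TATCGATA, the palindrome in the element bound by the factor DREF, was at 14 chromosome 4 summits (2.94%), against 0.875% of flanks, and at 1.84% of summits and 0.447% of flanks elsewhere. In replicate 5 it was at 3.08% of chromosome 4 summits and 1.53% of flanks, and in replicate 6 at 2.40% of summits and 1.73% of flanks. It was found in 1.98% of all windows of chromosome 4 and 0.550% of those elsewhere. The strongest region with it was the Actbeta promoter printed above.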

How the data were processed

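ChIP-seq of tagged foxo in 2 biological replicates of 1 group was analysed from the interval lists the authors deposited. Per the notes deposited with each sample, relaxed lists of peaks with background were made from each replicate's alignments and a control and from both pooled, and the IDR list from these. Aligner, caller and versions are not given in the sources used here. Each signal value the authors deposited has no stated scale. Their deposited significance is a q-value as −log10, and the column for p-values was empty of values. Depth is unknown, so no precision from depth can be given.

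Coordinates are 1-based on dm6. Lengths and bases came from the RefSeq Release 6 genome, whose lengths covered every region end, with its mobile elements, and genes from Ensembl release 115 without transposable elements. Ranks are by signal within a list, and replicates were matched by summits within 150 bp. Python 3.11.15, numpy 2.4.6, pandas 2.3.3 and scipy 1.17.1 were used, and the placing, matching and pattern counts were tested on simulated data. No test between groups was possible, and values are descriptions with exact counting intervals.

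The regions, role lists and measures were chosen with earlier results of these data known. Named genes are those nearest the IDR peaks and the 15 strongest regions, up to 4 per role list by signal, and the 5 with most summits in the body. Alternatives were other distances, merged lists, each replicate alone and the dm3 lists.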

Additional observations from a re-analysis of the deposited data

How the results depend on the processing

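Over 11 results and 53 alternative values, 40 stayed within the spread of the 2 replicates, or within the counting interval where that applied, and the rest are given here. The spread was the standard deviation of the 2 single-replicate values, which are themselves among the alternatives. From 2 values it can be wide, as 0.965 for the promoter fold of 2.03, so the count does not measure stability. No paired analysis was possible because both replicates belong to 1 group. With 1 replicate left out, the density ratio of chromosome 4 to the rest ranged from 1.38 to 1.73, the ratio of IDR shares from 0.119 to 0.1498 (main value 0.130) and the ratio of q shares from 0.161 to 0.553 (main 0.350). The share of other regions below the chromosome 4 median ranged from 41.5 to 48.7%, the promoter fold from 1.34 to 2.71, the genes marked from 85 to 88.8% and the median gap from 1346 to 1640 bp. Coding summits ranged from 10.8 to 19.8%, mobile element summits from 13.5 to 15.2% and the GC difference between summits and flanks from 0.81 to 1.23 points. Per TSS position the density ratio was 2.07. No chromosome 4 region was among the IDR peaks at or above their median signal, a ratio of 0. Matching within 75 bp gave 17.8% of regions in both replicates and within 300 bp 37.9%, fewer or more by construction. Within 2000 bp of a TSS 95.0% of genes were marked, and with genes of every kind 79.7%. With flanks at 2000 bp the GC difference reversed to -0.25 points, and the cause was not tested. Merging overlapping regions gave a median gap of 1839 bp. Among chromosome 4 regions at or above their median signal 9.62% of summits lay in mobile elements. That selection, the density outside mobile elements (ratio 1.74) and the coding and mobile element shares themselves, with all their alternatives, were chosen after seeing the data. The density on dm3 was not run, since no dm3 lengths were used. No read depth was given, so what depth limits cannot be stated.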
